A study of Mus musculus with 4 samples.

Results

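Sertoli cells are the somatic nurse cells of the seminiferous tubule, and the genes Clu, Amhr2, Aard, Cst12, Cst9, Defb19, Wfdc10, Tsx and Etd are described here in cells that were sorted as germ cells. These are 9 of the 26041 gene symbols in the count tables, and they were selected by their counts: their rows had been seen to hold high counts in few cells and low counts in many cells, and to differ between libraries. Their own levels are therefore given as a description, without a test. Of the 1249 cells, 88 held 88.0% of the 5871 molecules counted for the 9 genes, and 39 of these 88 cells came from 1 library, that of the Plzf lu/lu cells on plate 3.

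Sertoli cells surround the germ cells from the base of the tubule to its lumen, form the blood-testis barrier with tight junctions, take up residual bodies shed by spermatids, and secrete much of the fluid and protein of the tubule. They respond to follicle-stimulating hormone, and they produce anti-Müllerian hormone before puberty. SOX9, GATA4 and WT1 are transcription factors that they express, and they supply GDNF and KIT ligand to spermatogonia.

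Cells were sorted from testes of 4 wk old mice of a B6N.Cg background carrying the allele labelled Eomes<tm1.1(icre/ERT2)Reb>, on the red fluorescence of tdTOMATO, which the Eomes-iCreERt2-tdTomato knock-in allele expresses from the Eomes locus in both groups. Littermates without that allele set the gate and DAPI excluded dead cells, so both groups carry the reporter and differ in Plzf, which is either wild type (Plzf +/+) or homozygous for the luxoid mutation (Plzf lu/lu). The 3 Plzf +/+ libraries hold 317, 303 and 277 cells (plates 1, 2 and 4), and the 2 Plzf lu/lu libraries hold 314 and 38 cells (plates 3 and 4), plate 4 having carried both genotypes in separate wells. No animal is named in the labels, only plates, and p-values therefore measure the spread between libraries, which may be technical. Transcripts were tagged at their 3′ ends with a unique molecular identifier (UMI), so a count is a number of molecules and is not scaled by gene length.

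A cell held 612 to 95069 UMIs and a library 254514 to 2608702 UMIs, and levels are given as CPM, the UMIs of a gene scaled to a common library total. Plzf, listed under its symbol Zbtb16, was at 77.0, 53.1 and 70.3 CPM for Plzf +/+ (plates 1, 2 and 4, the order kept throughout), against 17.6 and 11.8 CPM for Plzf lu/lu (plates 3 and 4). On plate 4, 5 Plzf +/+ cells lie in wells that the labels give to Plzf lu/lu, and none of them is among the 88 cells. Wells share a set of barcodes across plates: 358 of 376 well barcodes occur in more than 1 library, and of the 82 wells that held 1 of the 88 cells, 6 did so on 2 plates and none on more.

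The 9 genes lie on 4 chromosomes of GRCm38, the build the authors used, with positions here from RefSeq GRCm38.p6. Of these, 4 stand on chromosome 2: the cystatin genes Cst12 (chr2:148789365-148793432) and Cst9 (chr2:148835147-148838737), which are 41714 bases apart, the defensin gene Defb19 (chr2:152576086-152580312), and Wfdc10 (chr2:164656046-164657368), which overlaps Wfdc9. Aard (chr15:52040107-52045722) and Amhr2 (chr15:102445002-102454640) are on chromosome 15, Clu (chr14:65968483-65981548) is on chromosome 14, and Etd (chrX:53434918-53443576) and Tsx (chrX:103409012-103424588, which overlaps Chic1) are on the X chromosome. Counts are given per gene symbol, so reads of Wfdc10 and Tsx that fall in an overlap could be assigned to either gene.

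The 150 bases upstream of the start that the RefSeq promoter table gives for Cst12, Cst9 and Tsx are shown because these genes were counted in the same few cells, with capitals marking each match to GATAA, the core of a GATA factor site, on the strand of the gene or on the other strand.
Cst12: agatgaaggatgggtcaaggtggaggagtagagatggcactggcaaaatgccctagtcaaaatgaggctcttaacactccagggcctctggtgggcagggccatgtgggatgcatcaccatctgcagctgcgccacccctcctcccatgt
Cst9: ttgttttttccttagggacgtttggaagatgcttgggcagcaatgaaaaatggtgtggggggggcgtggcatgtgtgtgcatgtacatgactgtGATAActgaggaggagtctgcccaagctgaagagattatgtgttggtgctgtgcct
Tsx: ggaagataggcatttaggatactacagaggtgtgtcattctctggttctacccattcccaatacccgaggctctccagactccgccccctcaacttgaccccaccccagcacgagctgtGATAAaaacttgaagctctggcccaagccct
These RefSeq sequences lie on the plus strand of GRCm38.p6 at chr2:148789215-148789364, chr2:148834997-148835146 and chrX:103414317-103414466. The window of Tsx lies inside the locus given above, so the start used by the table is not the outer end of that locus. Of the 9 genes, 6 matched an entry of the promoter table (Amhr2, Cst12, Cst9, Etd, Tsx and Wfdc10), and GATAA was found in the same window of 2 of them, Cst9 and Tsx. Of 27025 promoters in the table, 13.6% hold it within 150 bases. The SOX letters ACAAT (17.8% of promoters) and the NR5A1 letters AAGGTCA (2.27%), searched on both strands, were in none of the 6 windows, which says only that these letters are not in these bases.

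Clu encodes clusterin, a secreted chaperone that is abundant in seminiferous fluid. Its level was 39.9, 33.3 and 33.4 CPM for Plzf +/+, against 255 and 161 CPM for Plzf lu/lu. The Plzf +/+ libraries lay close together and both Plzf lu/lu libraries were well above them, without overlap, an order that 16% of all genes tested showed. Clu molecules were counted in 20, 29, 28, 87 and 7 cells of these libraries in the same order, and 155 of the 664 Clu UMIs of plate 3 came from 1 cell.

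Amhr2 encodes the type II receptor of anti-Müllerian hormone. It was at 11.3, 10.5 and 9.97 CPM for Plzf +/+, against 74.0 and 47.1 CPM for Plzf lu/lu. Its cells numbered 7, 15 and 13 in Plzf +/+ and 47 and 6 in Plzf lu/lu, and no overlap of levels was seen. Of 8 further genes of the receptor's pathway, a list of ligand, type I receptors and SMAD proteins, 7 were analysed here. Beside 12.8% of all UMIs, the 88 cells held 7.23% of the UMIs of Smad4, the shared SMAD partner, 6.57% of Bmpr1a, a type I receptor, and 12.2% of Smad1, a receptor-activated SMAD, and 3 of the 15 UMIs of Acvr1, another type I receptor. Of these genes 3 were tested between rich and other cells and none was called by edgeR, with Bmpr1a at an unadjusted p under 0.05.

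Cst12 and Cst9 encode relatives of the cystatins, secreted inhibitors of cysteine proteases, and Cst9 is also known as testatin. Cst12 was at 29.6, 52.3 and 50.4 CPM in Plzf +/+ and at 212 and 86.4 CPM in Plzf lu/lu. Cst9 was at 37.1, 43.8 and 42.4 CPM in Plzf +/+ and at 185 and 98.2 CPM in Plzf lu/lu. For both genes the Plzf lu/lu library of plate 4 stood between the Plzf +/+ libraries and that of plate 3.

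Defb19 encodes a beta-defensin, of a family of small cationic antimicrobial peptides, and Wfdc10 a protein with a WAP four-disulfide core, a fold found in protease inhibitors. Defb19 was at 68.6, 100.3 and 101 CPM in Plzf +/+ and at 366 and 165 CPM in Plzf lu/lu, and it was the gene of the 9 with UMIs in the most cells (222 of 1249, 17.8%). Wfdc10 was at 23.0, 22.3 and 29.9 CPM in Plzf +/+ and at 117 and 43.2 CPM in Plzf lu/lu. The Plzf lu/lu library of plate 4 had only 11 Wfdc10 UMIs in 4 cells, and its distance from the Plzf +/+ library of the same plate was small beside that of plate 3.

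Aard encodes an alanine- and arginine-rich domain protein, and Tsx and Etd are X-linked genes known for testis expression. Aard was at 16.9, 37.9 and 31.4 CPM in Plzf +/+ and at 86.6 and 58.9 CPM in Plzf lu/lu. Tsx was at 16.4, 19.4 and 19.9 CPM against 64.0 and 39.3 CPM, and Etd at 15.0, 15.6 and 18.0 CPM against 45.6 and 39.3 CPM. Aard was lowest on plate 1 among the Plzf +/+ libraries, and Etd had the smallest number of UMIs of the 9 genes, 234 in all.

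**Figure D1:**
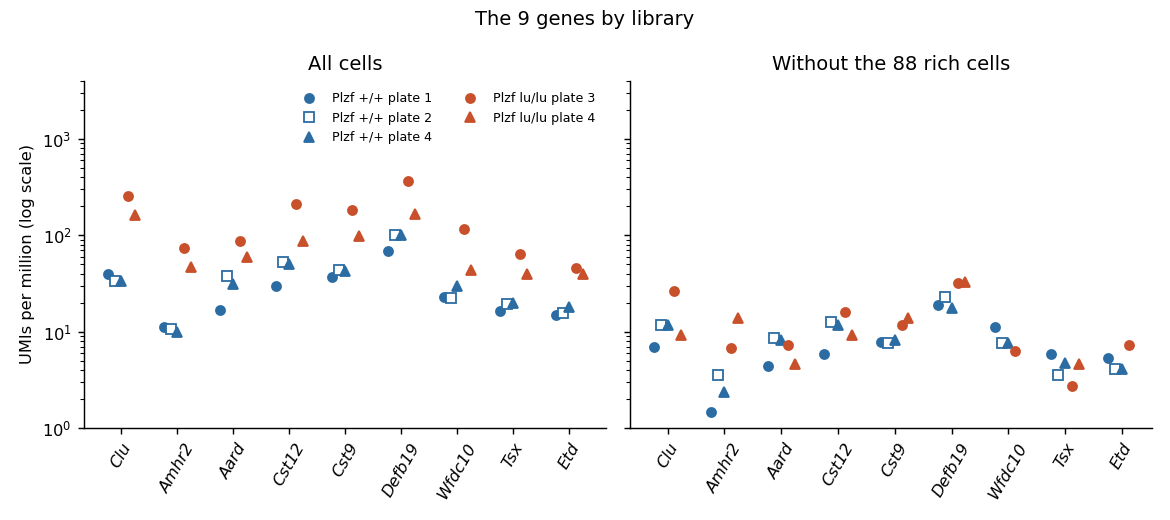
CPM (log scale) of each of the 9 genes in 5 libraries, over all cells (left) and over the cells that are left without the 88 rich cells (right). On the left both Plzf lu/lu libraries lie above the 3 Plzf +/+ libraries for each gene, and on the right Amhr2, Cst9 and Defb19 are still higher in both Plzf lu/lu libraries, Wfdc10 is lower in both, and the other 5 genes overlap. Wfdc10 and Etd are at 0 in the remaining Plzf lu/lu cells of plate 4 and are not drawn there.

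A cell was called rich when it held at least 10 UMIs of the 9 genes over at least 4 of them, which is a range on a continuous scale and not a cell type. Rich cells numbered 9 of 317, 20 of 303 and 15 of 277 on the Plzf +/+ plates, that is 2.84% (95% exact Clopper-Pearson interval 1.31 to 5.32), 6.60% (4.08 to 10.0) and 5.42% (3.06 to 8.77). For Plzf lu/lu they numbered 39 of 314 and 5 of 38, 12.4% (8.98 to 16.6) and 13.2% (4.41 to 28.1). Both Plzf lu/lu shares were above the 3 Plzf +/+ shares, but on plate 4, where both genotypes were processed together, the intervals overlap. The intervals cover counting error only. Leaving out plate 3, 49 rich cells remain and hold 79.6% of the UMIs of the 9 genes. Near the limit, 11 rich cells had 10 to 12 UMIs, and 11 cells with 4 or more of the genes had 7 to 9 UMIs and were not counted as rich.

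The molecules of the 9 genes were concentrated in few cells. The 10 cells with the most of them held 36.0% of all their UMIs, the first 20 held 52.2% and the first 40 held 71.4%. The richest cell, a Plzf lu/lu cell of plate 3, held 510 UMIs of the 9 genes among 19416 UMIs, with 155 of Clu, 97 of Cst12, 71 of Defb19 and 64 of Cst9. All 9 genes were found together in 33 cells, whereas 838 cells held no UMI of any of them. Each gene followed the same course: 82.1% (Etd) to 90.5% (Cst9) of its UMIs were in the 88 cells, in which 61 (Amhr2) to 86 (Cst9) cells had the gene. Within single libraries this share ran from 53.1% (Wfdc10 on plate 1) to 100%, and it was above 50% in all 45 pairs of a gene and a library. The 9 genes chose the rich cells, so high shares follow from that choice and are a description. Over all libraries, 838 of 15739 genes with at least 20 UMIs had over 50% of them in rich cells.

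**Figure D2:**
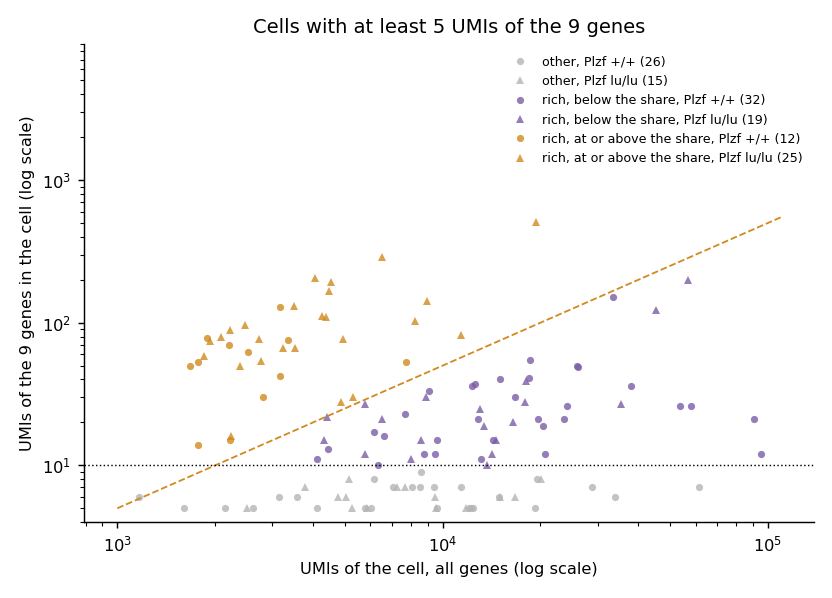
UMIs of the 9 genes against all UMIs of the cell, both on log scales, for the cells with at least 5 UMIs of the 9 genes; circles are Plzf +/+ and triangles Plzf lu/lu. The dotted line marks 10 UMIs and the dashed line 0.5% of the UMIs of the cell: 37 rich cells, mostly shallow, lie on or above the dashed line and 51, mostly deep, lie below it.

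**Figure D3:**
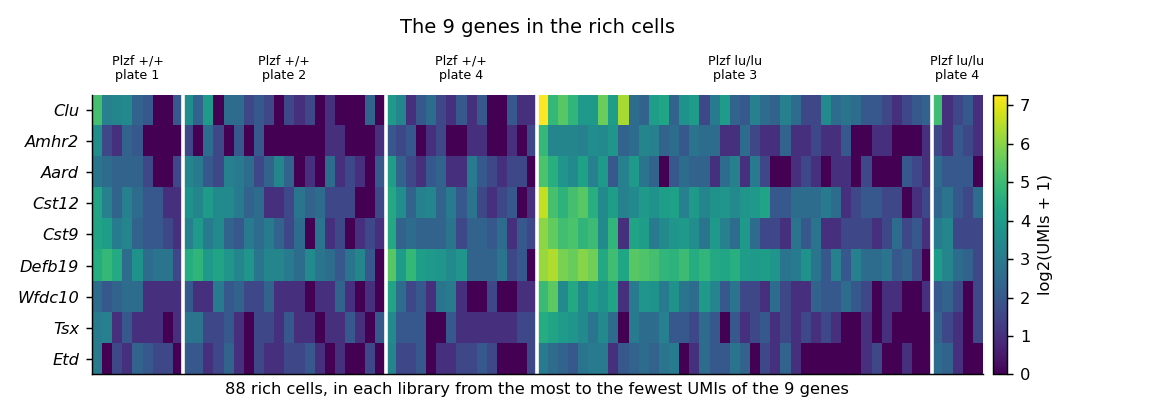
UMIs of each of the 9 genes, as log2(UMIs + 1), in the 88 rich cells, which are columns grouped by library and ordered by their UMIs of the 9 genes. Rows brighten and darken together, and the brightest columns are those of the Plzf lu/lu library of plate 3.

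Outside the rich cells the 9 genes were found at 1 or a few UMIs in many cells. Of the 1161 other cells, 323 (27.8%) held at least 1 UMI of the 9 genes: 176 held exactly 1, 85 held 2 or 3 and 62 held more than 3. By library the share was 21.8, 21.9 and 24.4% for Plzf +/+, against 45.5 and 15.2% for Plzf lu/lu. The largest and the smallest of these shares were those of the 2 Plzf lu/lu libraries, which had similar percentages of rich cells. Other cells with a UMI were deeper than those without (median of 7365 against 5453 UMIs). After thinning each cell to 2000 UMIs, which left out 76 shallower cells, the share was 10.7, 12.0 and 11.0% in Plzf +/+ and 21.0 and 8.33% in Plzf lu/lu.

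The other cells hold fewer than 10 UMIs of the 9 genes by definition, which bounds their level. The 9 genes together were at 258, 336, 337, 1404 and 739 CPM over all cells (the 3 Plzf +/+ values first), and at 67.9, 81.9, 75.9, 116 and 87.8 CPM in their other cells. For every 100 UMIs of the 9 genes in rich cells, other cells held 33.9, 25.6 and 23.9 UMIs in Plzf +/+ and 7.55 and 11.2 UMIs in Plzf lu/lu. No UMI of Wfdc10 or Etd was found in the 33 other Plzf lu/lu cells of plate 4, which allows up to 9.09% of such cells to show a UMI and sets no limit on expression, since these cells were chosen for low counts.

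The mix of the 9 genes was alike in rich and in other cells when all libraries were summed. Defb19 made up 26.9% of their UMIs in rich cells and 27.2% in other cells, Clu 15.9 and 16.5%, Cst12 14.9 and 13.3%, and Aard 7.22 and 8.06%. Cst9 made up 13.6 and 10.5%, and Etd, of which the largest percent of UMIs lay outside rich cells, 3.72 and 5.94%. Within libraries the 2 mixes were less alike, as with Wfdc10 on plate 1 (6.34% of the UMIs of the 9 genes in rich and 16.5% in other cells). Whether the low counts come from the wells' own cells or from free RNA was not tested.

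The rich cells fell along a range of depth and of share. In 37 of them the 9 genes took at least 0.5% of the UMIs of the cell, and in 51 they took less. Those at or above this share numbered 4, 7 and 1 in Plzf +/+ (plates 1, 2 and 4) and 23 and 2 in Plzf lu/lu (plates 3 and 4), and had a median of 3174 UMIs per cell, against 14154 for those below it and 5877 for the other cells. Of the 40 cells with more than 20000 UMIs, 15 were rich. Around the limit, 5 rich cells had shares of 0.4 to 0.6%, so that the 2 sides are a division for description. Cells with more than 1 cell's RNA were not called, since sorting put 1 cell in each well by design, and their number was not tested.

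The labels call all the sorted cells germ cells. Dazl, an RNA-binding protein of germ cells, had a UMI in 12 of the 37 rich cells at or above the 0.5% share (32.4%), in 49 of the 51 below it (96.1%) and in 1097 of the 1161 other cells (94.5%). Thinned to 2000 UMIs, the shares with Dazl were 25.8, 66.7 and 83.6% in that order. Gfra1, the GDNF receptor of early spermatogonia, was found in 0 of 31 thinned cells at or above the share, with an exact 95% upper limit of 11.2%. This limits thinned cells with a UMI and not cells expressing the gene, and 2 of the 37 cells before thinning held Gfra1 UMIs. Thinned, it was found in 13.7% of those below it and in 32.7% of other cells. Ldhc, a lactate dehydrogenase of spermatocytes and spermatids, went the other way, with 80.6, 86.3 and 20.8% of thinned cells, and so did Prm1, a protamine that packs sperm DNA, with 54.8, 64.7 and 9.77%.

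Genes outside the 9 were then compared between rich and other cells within each library, on sums of UMIs with the library as a block and with the 9 genes left out. At an edgeR adjusted p under 0.05, 1691 of 7293 genes tested were higher in rich cells (23.2%) and 1281 were lower (17.6%), so that a call by itself was frequent. Lower calls were 378, 625 and 576 without Plzf +/+ plate 2, Plzf +/+ plate 4 and Plzf lu/lu plate 3, and without Plzf lu/lu plate 4 there were 2825 higher calls, 8 of them among the further Sertoli cell genes. From a list of 23 further Sertoli cell genes, 22 were analysed here. With every gene tested whatever its level, 15 of the 22 were called higher in rich cells, Krt18 and Trf were called lower and 5 were not called by edgeR, where 11.6% of all genes were higher. The filter on low counts passed only 4 of the 22. Cldn11, Rhox8 and Inha passed through their counts in rich cells, whereas Ctsl was well counted in other cells too. The count of 4 higher under the filter is therefore no measure of the list. Values of single genes here and in the paragraphs on relatives, myoid genes and the largest differences are from the filtered fit, and each gene given there as higher with its adjusted p was also called higher with no filter (Cldn11 then at 5.90 ± 0.44 SE). Cldn11, the claudin of the blood-testis barrier, was at 96.4, 40.5 and 61.9 CPM in rich Plzf +/+ cells and at 319 and 210 CPM in rich Plzf lu/lu cells. In other cells it was at 0 to 2.71 CPM. This is a log2 fold change of 6.24 ± 0.41 (SE; edgeR adjusted p = 4.10e-13), higher in 5 of 5 libraries. Rhox8, an X-linked homeobox gene, differed by 4.98 ± 0.45 (edgeR adjusted p = 1.23e-08), Inha, the inhibin alpha subunit, by 4.89 ± 0.43 (edgeR adjusted p = 8.33e-11), both in 5 of 5 libraries, and Ctsl, cathepsin L, by 1.22 ± 0.32 in 3 of 5 (edgeR adjusted p = 0.00789).

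The cells at or above the 0.5% share were also fitted by themselves. That fit held 34 such cells of 3 libraries with at least 3 of them (plates 1 and 2 of Plzf +/+, plate 3 of Plzf lu/lu) against all other cells of those libraries, rich cells below the share included, and 2.62% of 10651 genes were higher and 1.62% lower. Of 12 genes of the list that passed the filter, 11 were called higher, in 3 of 3 libraries, and Trf, transferrin, was not called (log2 fold change -0.48 ± 1.06 SE). Genes at about 1 CPM in the comparison cells, such as Mro and Dhh, could pass only through the cells where they are high, so this count does not describe the whole list. With no filter 19 of 22 were called higher and 3 were not called, where 1.7% of all genes were higher, and the genes named here with a p were among the 19. The transcription factors Sox9 and Wt1 differed by 5.11 ± 0.88 (SE; edgeR adjusted p = 6.59e-07) and 5.23 ± 0.81 (edgeR adjusted p = 2.18e-08). Sox9 was at 128, 190 and 356 CPM in these cells of plates 1, 2 and 3 and at 2.84, 3.82 and 8.83 CPM in the others. The lowest levels above 0 among listed genes in these cells were 64.0 and 63.4 CPM on plates 1 and 2. Values of these genes on those plates, and their direction there, therefore often rest on few UMIs.

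The other 9 genes of the list called higher at or above the share were Dhh, Kitl, Inha, Vim, Mro, Rhox5, Ctsl, Cldn11 and Rhox8. Dhh, the hedgehog ligand of Sertoli cells, was at 256, 63.4 and 116 CPM in these cells of plates 1, 2 and 3 and at 2.37, 0.849 and 2.01 CPM in the comparison cells. Mro was at 192, 254 and 267 CPM against 1.42, 1.27 and 0.401 CPM. Kitl, the ligand of KIT on differentiating spermatogonia, was at 64.0, 63.4 and 89.0 CPM against 0.946, 0.849 and 12.0 CPM. Kitl on plates 1 and 2 and Dhh on plate 2 thus stood at the lowest level above 0, the counting floor. With no filter these 3 genes were also called higher (edgeR adjusted p = 6.13e-12, 3.63e-13 and 0.00299). Inha differed by 6.44 ± 0.67 (SE; edgeR adjusted p = 1.19e-18). Vim, the intermediate filament vimentin, differed by 5.13 ± 0.74 (edgeR adjusted p = 8.90e-10), Rhox5 by 4.84 ± 0.82 (edgeR adjusted p = 5.38e-07) and Ctsl by 2.52 ± 0.33 (edgeR adjusted p = 3.64e-12). Cldn11 and Rhox8 were higher there too, by 6.17 ± 0.67 and 5.59 ± 0.61.

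Genes of the list that did not pass the filter over all rich cells, and were not named above, are given by their UMIs. Of Gata1, a GATA factor of Sertoli and red blood cells, 22 of 24 UMIs were in rich cells, of Nr5a1, a nuclear receptor of somatic gonadal cells, 12 of 14, of Gata4 12 of 18 and of Ptgds, a prostaglandin synthase, 11 of 12. Fshr, the receptor of follicle-stimulating hormone, had 3 UMIs in all, each in a rich cell at or above the share. Gdnf had 3 of its 4 UMIs in rich cells below the share. Over all rich cells, Inhbb, an inhibin beta subunit, had 8 of 17 UMIs and Sox8, a relative of Sox9, 9 of 29. Amh was not analysed here. Krt18, a keratin of immature Sertoli cells, and Trf had more UMIs in all than Cldn11, 218 and 227 against 190, but only 11 and 9 of them in rich cells.

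**Figure D4:**
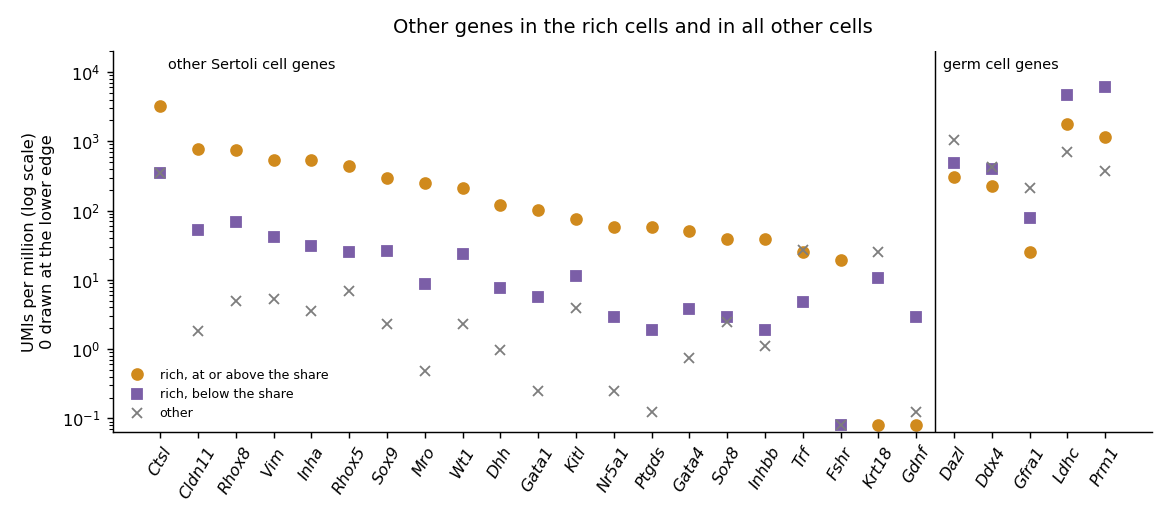
CPM (log scale) of 21 other Sertoli cell genes and of 5 germ cell genes in rich cells at or above the 0.5% share (circles), rich cells below it (squares) and all other cells (crosses), summed over libraries, with values of 0 drawn at the lower edge. Most Sertoli cell genes are highest in the circles, Krt18 is highest in other cells, Dazl and Gfra1 are lowest in the circles, and Ldhc and Prm1 are highest in the squares.

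Genes of late germ cells were higher over all rich cells, and most of their UMIs in rich cells came from those below the share. All 11 spermatid genes were called higher in rich cells (median log2 fold change 3.52, against -0.11 over all genes, of which 23.2% were higher), among them Prm1 (4.53 ± 0.75 SE; edgeR adjusted p = 0.00974) and Gapdhs, the glycolytic enzyme of the sperm tail (3.79 ± 0.22; edgeR adjusted p = 5.48e-14). Of the spermatocyte list, 4 of 6 genes tested were higher. Prm2, the second protamine, was at 913 CPM in cells at or above the share, 6038 CPM in rich cells below it and 556 CPM in other cells, all libraries summed. The fit for the cells at or above the share pools the rich cells below it with the other cells, and its result for late germ cell genes is not a comparison with the other cells alone: there none of the 11 spermatid genes was called higher, Prm2 was called lower (-1.36 ± 0.39; edgeR adjusted p = 0.0158) and none of 8 spermatocyte genes was called. The summed spermatid list was at 3774, 21420 and 1631 CPM in these classes, and took a median of 0.119% of the UMIs of a cell at or above the share, 0.452% below it and 0.00967% in other cells.

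Of 8 genes of undifferentiated spermatogonia tested, 6 were lower in rich cells and none was higher, where 17.6% of all genes were lower, with Gfra1 at -1.15 ± 0.27 (SE; edgeR adjusted p = 0.00124) and Sall4, a zinc finger factor of stem cells, at -1.16 ± 0.29 (edgeR adjusted p = 0.00177). Of 5 genes of differentiating spermatogonia, Stra8, a gene induced by retinoic acid at meiotic entry, and Ccnd2, a D-type cyclin, were lower and Dmrtb1, which acts at the switch to meiosis, was higher, and 2 were not called. Of the 6 general germ cell genes, Dazl was lower (-0.79 ± 0.18; edgeR adjusted p = 0.000636) and 5 were not called. At or above the share Dazl was lower by more, at -2.20 ± 0.41 (edgeR adjusted p = 9.63e-06), Gfra1 was the 1 gene called of 11 undifferentiated genes tested, at -2.69 ± 0.84 (edgeR adjusted p = 0.0373), and Ddx4, a germ cell helicase, was not called (-1.17 ± 0.49).

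Marker lists of other cells differed in rich cells. The 88 cells held 4 UMIs of the Leydig cell list (3 of 7 genes analysed here), 7 of the macrophage list (4 of 7 genes analysed here), 7 of the endothelial list, all of Kdr, and 32 of the T and NK cell list, 25 of them of Cd3d (of 55 in all cells). The erythroid list was at 18.3 CPM in rich and 1.35 CPM in other cells, with 22 UMIs in rich cells, of which 20 were of Alas2, the heme synthesis enzyme of red cell precursors, and none of the alpha globins Hba-a1 and Hba-a2. Alas2 was at 192, 127 and 89.0 CPM in cells at or above the share of plates 1, 2 and 3 and at 0.473, 2.12 and 1.60 CPM in the comparison cells, and was called with no filter (5.64 ± 0.75 SE; edgeR adjusted p = 3.41e-11). The values of Alas2 on plates 1 and 2 rest on few UMIs. The peritubular myoid list was at 117 CPM in rich and 16.2 CPM in other cells, with 141 UMIs in rich cells, of which 112 were of Actg2, a smooth muscle actin (3.66 ± 0.35 over all rich cells; edgeR adjusted p = 5.50e-10), mostly below the share, and the other 5 genes of the list had 0 to 12 UMIs in rich cells. Acta2 was at 9.97 CPM in rich and 2.94 CPM in other cells, Des at 7.48 and 1.22, Tagln at 4.99 and 1.71, Cnn1 at 1.66 and 0.490 and Myh11 at 0 and 0.612. The part of these genes in the other differences was not tested.

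Relatives of the 9 genes were few among those measured well. Of 37 other genes named Cst with a number, Wfdc or Defb, 5 passed the filter in rich cells: Defb36, Cst8, Cst13 and Wfdc15a were higher and Cst3 was lower, where 23.2% of all genes were higher and 17.6% lower. Genes such as Defb36 and Cst13 passed through their counts in rich cells, so these counts do not describe the whole list. With no filter Defb45, Defb33, Wfdc1, Wfdc6a, Defb30, Wfdc9 and Defb11 were called higher as well. The remaining relatives tested were then not called, where 11.6% of all genes were higher. Defb36, a beta-defensin, was at 253, 104 and 131 CPM in rich cells of Plzf +/+ and at 406 and 368 CPM in those of Plzf lu/lu, with at most 13.9 CPM in other cells of any library (5.08 ± 0.28 SE; edgeR adjusted p = 4.39e-14). At or above the share, in a part of the same cells, Defb36 differed by 5.91 ± 0.49 (edgeR adjusted p = 2.24e-29). Cst8, a cystatin of spermatids and epididymis, was at 4.26 ± 0.33 over all rich cells (edgeR adjusted p = 2.90e-09) and was not called at or above the share (0.82 ± 0.78). Cst3, cystatin C, was lower by little, at -0.61 ± 0.19 (edgeR adjusted p = 0.00975).

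Among the called genes that moved the same way in 5 of 5 libraries, those with the largest differences in rich cells were, beside Cldn11, Defb36 and Rhox8, Gm3880 (6.38 ± 0.40 SE; edgeR adjusted p = 2.46e-13), Basp1, 4933402E13Rik, Aldh1a1, Dmrtc1a, Tmem184a and 8030411F24Rik (4.97 ± 0.53; edgeR adjusted p = 3.94e-09). Aldh1a1, a retinaldehyde dehydrogenase that makes retinoic acid, was at 193, 45.6 and 44.7 CPM in rich cells of Plzf +/+ and at 301 and 78.9 CPM in those of Plzf lu/lu, and at 1.17 to 9.25 CPM in other cells. All 10 were also called higher at or above the share, in cells that are a part of the same rich cells. The genes with the lowest values were Pygl, the liver glycogen phosphorylase (-2.85 ± 0.38; edgeR adjusted p = 2.45e-07), Fam111a, Il1r2, Phf11d, Ak4, Ldb1, A530054K11Rik, Capg, Nefm and Nipa1. At or above the share none of these 10 was called, but all 10 had log2 fold changes below 0, among them Pygl at -3.56 ± 1.34 and Capg at -2.35 ± 1.22, and most were at 0 in at least 1 library.

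The genes most like the 9 by their distribution over cells were found from the share of their UMIs in the 88 cells. Over 15739 genes with at least 20 UMIs the median gene had 10.1% of its UMIs there, and the rich cells held 12.8% of all UMIs. The 10 genes beside the 9 with the highest shares were Gm15543 (96.3%), P2rx2, an ATP-gated channel (95.8%), Mro (92.3%), Cldn11 (92.1%), Gata1 (91.7%), Gm3880 (91.4%), Serpina5, a serine protease inhibitor (91.4%), Gsta2, a glutathione transferase (90.6%), Aqp8, a water channel (90.5%), and Clec12b (90.4%). Of these, Gm15543, P2rx2 and Gata1 rest on 27, 24 and 24 UMIs. The 9 genes ranked from 10 (Cst9) to 46 (Etd) among these genes, which is what chose the cells and not a finding.

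Between genotypes, the levels of the 9 genes over all cells did not overlap: for each of them both Plzf lu/lu libraries were above all 3 Plzf +/+ libraries. Of all genes tested, 16% stood apart in this way, and since the counts by library chose the 9 genes, nothing is read from their count. Clu was at 35.5 ± 3.79 CPM (SD, n = 3) in Plzf +/+ and at 208 ± 66.1 CPM (n = 2) in Plzf lu/lu, and the fitted log2 fold change was 2.65 ± 0.22 (SE). That of Amhr2 was 2.64 ± 0.27, of Cst12 1.93 ± 0.41, of Cst9 1.92 ± 0.25 and of Wfdc10 1.88 ± 0.37. Defb19 (1.68 ± 0.35), Tsx (1.62 ± 0.27), Etd (1.47 ± 0.26) and Aard (1.46 ± 0.35) followed.

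Leaving out the rich cells, which are defined by these same genes, limits what a cell can hold to 9 UMIs of the 9 genes, so smaller differences follow from the split itself and the values are a description. Amhr2, Cst9 and Defb19 still had both Plzf lu/lu libraries above all Plzf +/+ libraries, and Wfdc10 had both below them (11.2, 7.59 and 7.59 CPM against 6.32 and 0 CPM). Clu then differed by 1.19 ± 0.41 (SE), Amhr2 by 1.74 ± 0.71, Defb19 by 0.73 ± 0.29, Cst9 by 0.66 ± 0.44, Cst12 by 0.57 ± 0.44 and Etd by 0.44 ± 0.67. Aard was at -0.01 ± 0.60 and Wfdc10 at -0.67 ± 0.59, and Tsx was too sparse to be fitted. The Plzf lu/lu value of Amhr2 on plate 4 rests there on 3 UMIs of 1 cell. The share of a library's cells that were rich and the level within them both enter these differences: in rich cells Clu was at 851, 142 and 161 CPM in Plzf +/+ and at 1533 and 1021 CPM in Plzf lu/lu, and Etd at 252, 73.3 and 99.6 CPM and at 261 and 262 CPM. Genotype and plate cannot be told apart for plates 1, 2 and 3, which held 1 genotype each.

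Of the other Sertoli list, 13 genes were tested between genotypes and 5 were called, each higher in Plzf lu/lu, where 0.583% of all 13728 genes were called higher. A gene could pass the filter through the 2 Plzf lu/lu libraries alone, so the 13 do not stand for the whole list. With no filter 10 of 22 were called higher and 12 were not called, where 1.33% of all genes were higher, and the 5 genes called under the filter were among the 10 (Sox9 then at 2.63 ± 0.51 SE). Krt18 was at 2.35, 7.17 and 7.48 CPM in Plzf +/+ and at 64.0 and 55.0 CPM in Plzf lu/lu (3.46 ± 0.41 SE; edgeR adjusted p = 0.0175). Vim (2.69 ± 0.30; edgeR adjusted p = 0.0137), Sox9 (2.67 ± 0.41; edgeR adjusted p = 0.0319), Cldn11 (2.52 ± 0.35; edgeR adjusted p = 0.0229) and Rhox8 (2.24 ± 0.32; edgeR adjusted p = 0.0264) were the others. None of the 5 was called when any 1 of the libraries of Plzf +/+ plate 2, Plzf +/+ plate 4, Plzf lu/lu plate 3 or Plzf lu/lu plate 4 was left out (edgeR, with 6 to 12 genes of the list at an unadjusted p under 0.05), and 12 genes of the list were called without Plzf +/+ plate 1.

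Without the rich cells 3 of 8 genes of the list were called higher in Plzf lu/lu, where 1.6% of 13151 genes were. Krt18 kept its difference (3.40 ± 0.39 SE; edgeR adjusted p = 0.000952), and Trf (1.52 ± 0.32; edgeR adjusted p = 0.0227) and Kitl were called as well. Vim (0.42 ± 0.63) and Rhox8 (0.12 ± 0.77) were no longer called, and Sox9 and Cldn11 were too sparse to be tested. Kitl was at 0.489, 0.506 and 1.17 CPM in the other cells of Plzf +/+ and at 11.7 and 9.25 CPM in those of Plzf lu/lu. These Plzf lu/lu levels are those of 26 UMIs on plate 3 and 2 UMIs on plate 4. The Plzf +/+ values are at the counting floor, and this fit was not repeated with a library left out. With every gene tested, an alternative chosen after seeing the data, Krt18, Trf and Kitl were the 3 of 21 genes of the list called higher, where 1.32% of all genes were (Kitl 3.87 ± 0.78 SE; edgeR adjusted p = 0.00011). Krt18 and Trf are the genes of the list of which over 90% of UMIs lay outside the rich cells, 95.0 and 96.0%.

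**Figure D5:**
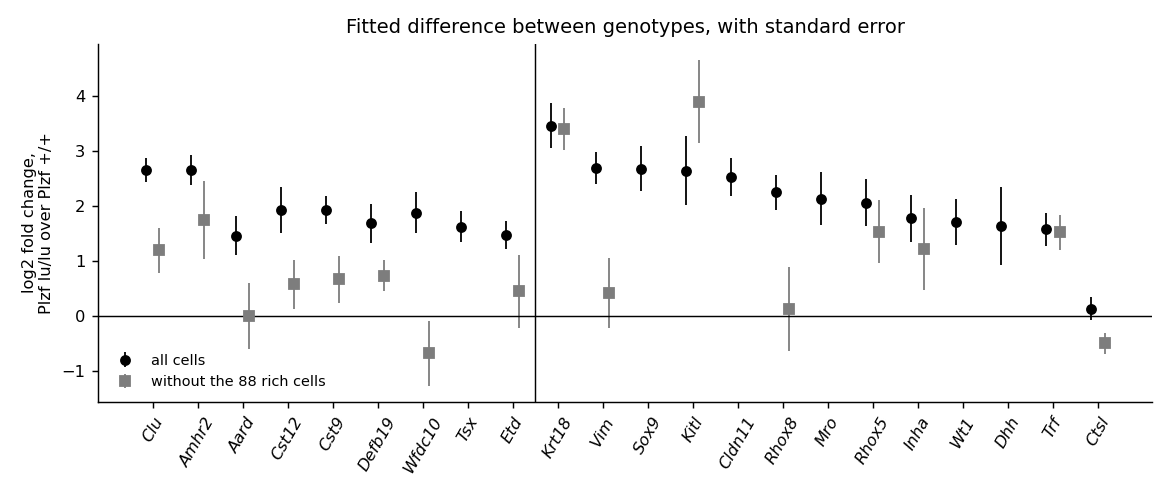
Fitted log2 fold change of Plzf lu/lu over Plzf +/+ with its standard error, for the 9 genes (left of the line) and the other Sertoli cell genes (right), over all cells (circles) and without the 88 rich cells (squares); genes without a square were too sparse to be fitted. Of the 9 genes all but Tsx, which was not fitted, have a smaller value without the rich cells, as do Vim and Rhox8, whereas Krt18 and Trf stay near 3.4 and 1.5.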

How the data were processed

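The tables hold whole-number UMI counts per gene symbol and cell, as deposited by the authors without normalization. The submitters' processing notes name bcl2fastq 2.18.0.12, Picard 2.9.3, STAR 2.5.4a and the build GRCm38. How cells were filtered is not given in the sources used here. The table of well barcodes deposited beside them gave each cell its well, and the ending of a cell's name gave its library. The genotype of plate 4 cells is that of the table.

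The members and all gene lists were chosen with earlier results of these data known. The 2 tables share 23344 of 26041 gene symbols, and a symbol absent from a table was taken as 0. Cells were thinned without replacement with seed 1, and no cell of the tables was removed. Sums of UMIs per library (genotypes), or per library and class of cells with at least 3 rich cells (library as a block), were fitted in edgeR 4.0.16 under R 4.3.3 with filterByExpr, TMM, glmQLFit and glmQLFTest (robust), and Benjamini-Hochberg adjustment over all genes tested, called under 0.05. DESeq2 1.42.0 was an alternative. Standard errors are the log2 fold change over the square root of F. On simulated counts, 85% of genes with a log2 fold change of 1 and 100% of those with 3 were recovered for the comparison of rich with other cells (7474 genes), and 17.5% and 100% between genotypes (13684 genes). The changed genes were drawn only from genes expected to be counted in the smallest sum, so these percentages do not describe sparser genes.

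Genes named were the 9, the other Sertoli list, the 10 largest and 10 smallest log2 fold changes among called genes that moved the same way in every library, the 10 most alike in share of UMIs in rich cells, and for other lists up to 4 with the most UMIs in rich cells. Other genes of those lists named here, such as Gfra1, Sall4, Gapdhs, Stra8, Cnn1, Myh11 and the alpha globins, were chosen after their values were seen. One gene of the other Sertoli list is counted in the list but not reported here. Proteins are not shown, and 3 promoters had no entry.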

Additional observations from a re-analysis of the deposited data

How the results depend on the processing

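With 5 libraries, the genotype comparison was the least stable. Counts called by edgeR were 80 higher and 32 lower in Plzf lu/lu, with 5 of the other Sertoli list. They were 343, 240 and 10 without a filter on low counts, 210, 203 and 3 without the rich cells, and 333, 400 and 3 with both changes, a combination chosen after seeing the data. RLE size factors gave 49 and DESeq2 50 lower genes. With the replicate block edgeR called 0, 0 and 0, with 605, 368 and 11 at an unadjusted p under 0.05. Leaving out 1 library gave 1 to 729 higher, 0 to 658 lower and 0 to 12 of the list, the highest of each without Plzf +/+ plate 1. Where the list count was 0 in these, 6 to 12 genes had an unadjusted p under 0.05, against 12 with all libraries, and DESeq2, run on all libraries only, called 5. Deviations of libraries with the same number in their titles correlated at 0.02 for number 1 and -0.01 for number 2. The 2 libraries of plate 4 correlated at only 0.05. A value this low for a shared plate means that the check cannot tell whether the numbers pair the libraries. A block for the plate could not be fitted, since it leaves no residual degrees of freedom.

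For rich cells, the 0.5% share in place of 10 UMIs gave 38 cells with 61.0% of the UMIs of the 9 genes, and 279 higher, 173 lower and 11 Sertoli list genes. A minimum of 20 UMIs gave 614 lower genes. Without a filter 2983 were higher, 3013 lower and 15 of the list, and 19 of the list at or above the share. Leaving out 1 library, an alternative chosen after seeing the data for the first 2 of these, gave 49 to 83 rich cells, 79.6 to 89.3% of UMIs, 1157 to 2825 higher, 378 to 1695 lower and 3 to 8 list genes, the lowest counts of cells and of UMIs without Plzf lu/lu plate 3. The list count at or above the share, whose alternatives were also chosen after seeing the data, was 8 to 13. The cause was not tested in any of these. Other alternatives stayed within 1.5 times the counts given. The filter limits these lists: 4 of 22 further Sertoli genes passed it in the comparison of rich with other cells.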
